A study of Caenorhabditis elegans with 2 samples.

Results

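The microRNA genes of Caenorhabditis elegans were examined for chromatin bound by ZAG-1 at the L2 larval stage. The members are all genes annotated as microRNA or pre-microRNA on the nuclear chromosomes of the WBcel235 assembly (the same as ce11), with overlapping entries merged. The 261 annotated entries made 256 loci. Each locus was extended by 2 kb upstream and 200 bp downstream along its strand, and a peak belonged to a locus when its summit, the point of highest signal as deposited, lay in this window. Together the windows covered 0.520% of the nuclear genome. They held 30 of the 1784 nuclear peaks that passed the authors' irreproducible discovery rate (IDR) threshold, or 1.68%; that list held 1803 peaks in all.

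Chromatin immunoprecipitation sequencing was done on whole L2 larvae, male and female pooled, of strain OP83 (unc-119(ed3) III; wgIs83), whose insertion provides eGFP-tagged ZAG-1. The 2 biological replicates carry the same genotype and form 1 group, so no condition can be compared and no test over samples exists. The labels do not state the promoter of the insertion, and whole larvae do not tell in which cells a site was bound. The deposited lists held 16325 peaks for the pooled replicates, 24146 for replicate 1 and 29374 for replicate 2. Peak lists give no read counts, so depth is unknown, and all intervals are 95% Wilson intervals that cover the counting of loci or peaks only. Scores are the authors' own and were ranked only within a list. Neighbouring loci can share a peak, so loci are not independent of each other.

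MicroRNAs are short RNAs cut from hairpins in longer transcripts, by the Drosha complex in the nucleus and by Dicer in the cytoplasm. Loaded into an Argonaute protein, they pair with messenger RNAs mainly through the seed, the bases near their 5′ end, and lower the output of those messengers. In C. elegans, lin-4 and let-7 were found through their roles in the timing of larval development, and lin-4 and the let-7 family are known to control the stage-specific divisions of skin cells. ZAG-1 is the worm member of the ZEB family of zinc finger homeodomain factors and is known for its role in neuron differentiation. In mammals, the ZEB factors and the miR-200 family of microRNAs repress each other.

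The mature sequences of the microRNAs on which the results turn are given here because several of these loci belong to families defined by a shared seed. They were read from RefSeq's features on WBcel235, 5′ to 3′, with the seed (bases 2 to 8) in capitals. The first 6 share 1 seed and form the mir-51 family, and every locus of this family had an IDR-thresholded summit.
mir-51-5p: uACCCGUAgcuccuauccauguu
mir-52-5p: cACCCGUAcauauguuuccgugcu
mir-53-5p: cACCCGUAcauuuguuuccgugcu
mir-54-3p: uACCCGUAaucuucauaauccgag
mir-55-3p: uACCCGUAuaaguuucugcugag
mir-56-3p: uACCCGUAauguuuccgcugag

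The 4 members of the let-7 family shown next share another seed. Of them, let-7 and mir-241 had an IDR-thresholded summit in their windows, and mir-48 and mir-84 did not.
let-7-5p: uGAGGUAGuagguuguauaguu
mir-241-5p: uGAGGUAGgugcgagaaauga
mir-48-5p: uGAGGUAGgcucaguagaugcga
mir-84-5p: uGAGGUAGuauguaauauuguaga

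Those below had a summit at their own locus and are shown for their developmental or neuronal roles or, for mir-90, for the high score of its peak.
lin-4-5p: uCCCUGAGaccucaaguguga
mir-90-3p: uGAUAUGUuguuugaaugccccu
mir-124-3p: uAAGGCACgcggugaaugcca
mir-34-5p: aGGCAGUGugguuagcugguug

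Among peaks at these loci, 7 are shown by the sequence within 100 bp of the summit, read from the RefSeq genome of WBcel235 on the plus strand. Capitals mark GAGAGA and the E-box CAGGTG or their reverse complements. Their summits lay in the windows of the mir-51 family, of let-7 family members, of lin-4 and of mir-90.
mir-54, mir-55 and mir-56, chrX:13145294-13145494: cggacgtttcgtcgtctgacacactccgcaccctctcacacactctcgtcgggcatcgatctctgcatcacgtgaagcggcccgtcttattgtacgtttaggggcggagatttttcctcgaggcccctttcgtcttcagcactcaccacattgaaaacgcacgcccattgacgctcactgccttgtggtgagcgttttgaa
mir-51 and mir-53, chrIV:11027770-11027970: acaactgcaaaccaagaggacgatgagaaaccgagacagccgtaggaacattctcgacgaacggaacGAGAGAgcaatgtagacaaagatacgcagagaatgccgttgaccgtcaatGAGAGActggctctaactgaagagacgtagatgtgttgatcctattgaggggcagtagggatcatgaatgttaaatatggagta
mir-52, chrIV:14033771-14033971: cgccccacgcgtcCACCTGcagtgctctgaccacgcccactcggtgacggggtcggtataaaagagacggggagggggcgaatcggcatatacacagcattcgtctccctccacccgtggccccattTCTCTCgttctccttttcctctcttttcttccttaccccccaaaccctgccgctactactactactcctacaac
mir-90, chrIII:8874303-8874503: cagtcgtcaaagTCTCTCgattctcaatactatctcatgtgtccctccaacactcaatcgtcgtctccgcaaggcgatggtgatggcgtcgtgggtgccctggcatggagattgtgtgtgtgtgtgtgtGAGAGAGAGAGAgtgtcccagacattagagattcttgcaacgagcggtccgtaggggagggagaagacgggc
mir-241, chrV:14366606-14366806: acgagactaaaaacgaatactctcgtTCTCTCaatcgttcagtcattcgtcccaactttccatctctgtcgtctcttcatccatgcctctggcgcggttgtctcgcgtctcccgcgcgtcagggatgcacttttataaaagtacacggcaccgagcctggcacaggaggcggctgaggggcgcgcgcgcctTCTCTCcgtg
let-7, chrX:14744554-14744754: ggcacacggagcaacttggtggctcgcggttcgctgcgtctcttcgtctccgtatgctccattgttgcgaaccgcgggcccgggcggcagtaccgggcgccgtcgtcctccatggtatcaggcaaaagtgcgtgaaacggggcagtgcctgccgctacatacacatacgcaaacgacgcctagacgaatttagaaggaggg
lin-4, chrII:5901642-5901842: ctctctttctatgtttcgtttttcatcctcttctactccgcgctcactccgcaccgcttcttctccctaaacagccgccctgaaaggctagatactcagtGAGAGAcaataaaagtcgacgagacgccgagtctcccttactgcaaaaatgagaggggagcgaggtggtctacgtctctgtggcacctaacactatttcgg

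ZAG-1 peaks lay at 30 of the 256 microRNA loci, or 11.7% (8.33 to 16.2%). Of 43670 nuclear windows of 2296 bp, the median length of a microRNA window, 3.88% held an IDR-thresholded summit. A window of the same form at each protein-coding gene start held one for 7.25% of genes. Other short noncoding genes, taken with the same extension, had higher shares, with 13.2% of nuclear tRNA loci and 21.8% of snoRNA and snRNA loci. The microRNA share thus stood above that of windows and coding starts and below that of the snoRNA and snRNA loci, and its interval includes the tRNA share. When overlapping windows were counted as 1 region, 23 of 215 regions (10.7%, 7.23 to 15.5%) held a summit. That interval includes the share of coding starts, 7.25%, as well as that of tRNA loci. The windows of those genes were not joined in this way. No test of these differences was made.

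Most of the 30 loci, 24, held 1 IDR-thresholded summit, 5 held 2, and mir-71 held 3. The peaks also numbered 30, since 4 of them lay in the windows of more than 1 locus. By chromosome, 9 of 71 loci on X (12.7%, 6.81 to 22.4%) and 21 of 185 on the autosomes (11.4%, 7.55 to 16.7%) had a summit, where the windows over all of X gave 4.83% and those over the autosomes 3.68%. On X, mir-54, mir-55 and mir-56 share 1 peak, and mir-2212 and mir-1819 share another. The autosomal counts ran from 1 of 28 loci on chromosome V to 6 of 26 on chromosome III, where 4 of the 6 share 1 peak. No window share was computed for single autosomes, so no difference between them is called.

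**Figure D1:**
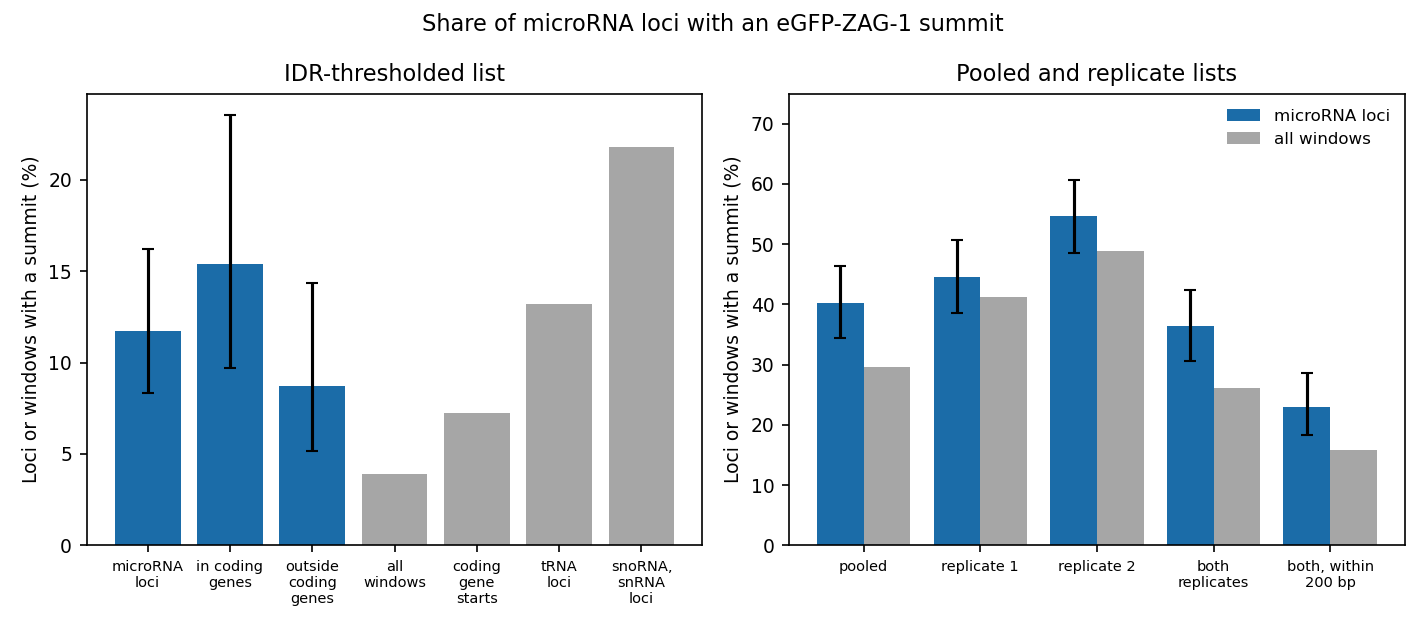
Share of loci or windows with a summit, in percent, for the IDR-thresholded list (left) and for the pooled and replicate lists (right). Blue bars are microRNA loci with 95% Wilson intervals and grey bars are other windows or gene classes; microRNA loci stand at 11.7%, against 3.88% of all windows, in the IDR-thresholded list and come closer to the windows in the replicate lists.

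The pooled and replicate lists, which also hold weak candidates, placed summits at more microRNA loci and at more of the genome. The pooled list placed a summit at 103 loci (40.2%, 34.4 to 46.3%), against 29.6% of all windows. Replicate 1 did so at 114 loci (44.5%, 38.6 to 50.7%), against 41.3% of windows, and replicate 2 at 140 (54.7%, 48.6 to 60.7%), against 48.8%. In both replicates the interval of the microRNA share included the share of all windows. Both replicates had a summit at 93 loci (36.3%, 30.7 to 42.4%), against 26.2% of windows, and the replicate summits lay within 200 bp of each other at 59 loci (23.0%, 18.3 to 28.6%), against 15.8% of windows. Neither replicate had a summit at 95 loci (37.1%, 31.4 to 43.2%), against 36.1% of windows, which lies within the interval.

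MicroRNAs can lie inside the body of a protein-coding gene, often in an intron, or on their own. Here 104 loci lay inside a protein-coding gene on either strand, 149 lay outside all of them, and 3, let-7 among them, overlapped one in part. Of the loci inside genes, 16 (15.4%, 9.70 to 23.5%) had an IDR-thresholded summit, and the windows with their midpoint in a coding gene body gave 3.24%. Of the loci outside genes, 13 (8.72%, 5.17 to 14.4%) had one, and the windows with their midpoint outside coding genes gave 4.96%. The intervals of these shares overlap, so no difference between the classes of loci is called.

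Strand was recorded for the loci inside genes. A summit lay at 14 of 74 loci on the strand of the host gene (18.9%, 11.6 to 29.3%) and at 2 of 30 on the opposite strand (6.67%, 1.85 to 21.3%). These intervals overlap as well. The 2 loci on the opposite strand, mir-54 and mir-56, share 1 peak with mir-55. Of the 14 on the host's strand, 4 share the peak in gcn-1. The intervals count such loci as separate although they rest on the same peak. A merged locus with an entry on each strand counts as on the strand of its host. This holds for mir-55, itself antisense to its host but merged with the entry F09A5.15. The summit lay outside the window of F09A5.15 itself, so this locus has its summit through the antisense mir-55. The 16 loci with a summit had 10 different hosts. For 12 of them the summit lay in the body of the host, and for the other 4 it lay in the promoter of the host gene, taken as 500 bp upstream to 100 bp downstream of its start. Those 4 were mir-354 in rps-20, mir-353 in rpl-24, mir-2216 in gmps-1 and mir-1829.2 in F20D1.3, and for them binding near the microRNA and binding at the host promoter cannot be told apart. The hosts rps-20 and rpl-24 encode ribosomal proteins.

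**Figure D2:**
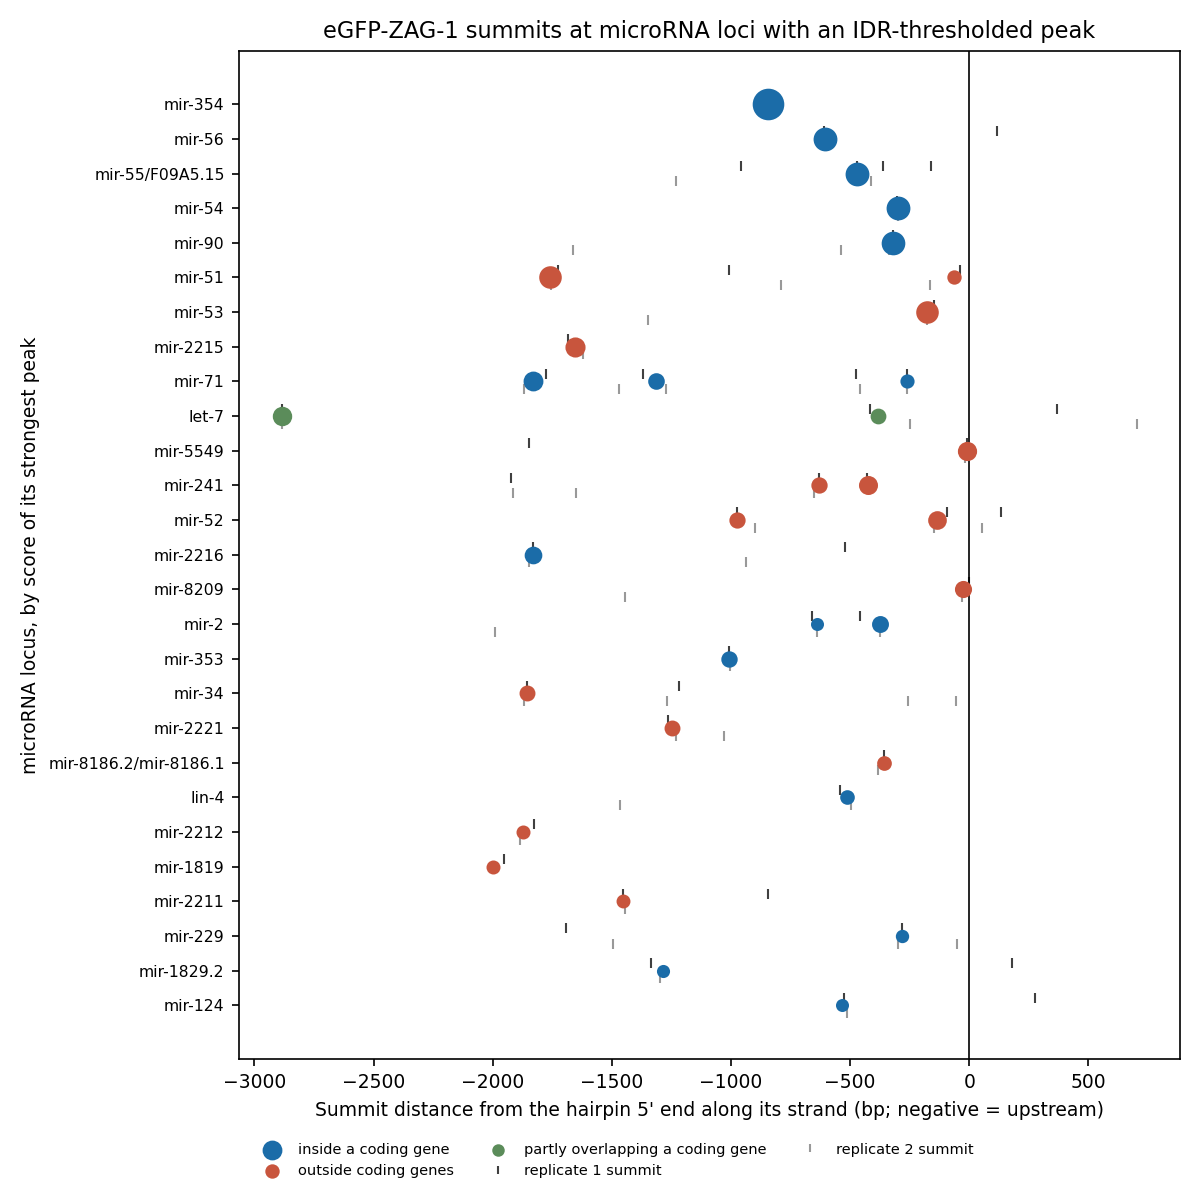
Distance in bp of each summit from the 5′ end of the hairpin, negative values upstream, for the 30 loci with an IDR-thresholded summit, ordered by the score of the strongest; of the 4 loci that share the gcn-1 peak, mir-229 alone is drawn. Filled circles are IDR-thresholded summits with area growing with score, coloured by the position of the locus relative to coding genes, and dark and grey ticks are replicate 1 and replicate 2 summits; every filled circle lies left of 0.

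The summits of the IDR-thresholded list were spread over the upstream part of the windows, with the largest count in the 500 bp next to the hairpin. The window, 2 kb upstream and 200 bp downstream, itself limits the distance and favours the upstream side. The distance was taken along the strand of the nearest hairpin, so that summits shared by neighbours counted once. Of the 30 summits, 13 (43.3%, 27.4 to 60.8%) lay within 500 bp upstream of the 5′ end, 6 lay 501 to 1000 bp upstream, 5 lay 1001 to 1500 bp upstream and 5 lay 1501 to 2000 bp upstream. One, at let-7, lay farther off, because the annotated let-7 entry is a long primary transcript. None lay downstream of the 5′ end (0 of 30, up to 11.4%), where the window was also much shorter. In the pooled list 40 of 130 summits (30.8%, 23.5 to 39.2%) lay within 500 bp upstream and 13 (10%) lay downstream.

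The mir-51 family is broadly expressed and is known to be needed as a group for embryonic development. Its 6 loci sit in 3 places in the genome and all had an IDR-thresholded summit, through 5 peaks. On the X chromosome, mir-54, mir-55 and mir-56 are antisense to F09A5.3 in 1 of its introns, and their shared peak at chrX:13145206-13145581 had a score of 121 and rank 76 in the IDR-thresholded list. Its summit lay 300 bp upstream of the mir-54 hairpin, 470 bp upstream of mir-55 and 607 bp upstream of mir-56. The peak ranked 124 in the replicate 1 list, with a score of 64.8, and 41 in the replicate 2 list, with a score of 55.7, and the replicate summits lay 3 bp apart.

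On chromosome IV, mir-53 and mir-51 lie outside coding genes on the minus strand. The peak at chrIV:11027682-11028057 had its summit 179 bp upstream of mir-53, with a score of 107 and rank 107, and ranked 96 in replicate 1 and 155 in replicate 2. A weaker peak at chrIV:11025988-11026363 (score 38.5) had its summit 64 bp upstream of mir-51, and the stronger one lay 1758 bp upstream of that hairpin. Farther along the chromosome, mir-52 had a peak with its summit 137 bp upstream (chrIV:14033683-14034058, score 70.4, rank 354) and another 974 bp upstream (score 51.4, rank 671). No coding gene started within 5 kb of either mir-52 summit. All 6 loci kept a summit in the higher-scoring 50% of the list and in as many of the highest-scoring peaks of each replicate alone.

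The let-7 family showed peaks at 2 of 7 loci. The let-7 gene has 3 annotated primary transcripts on the minus strand of chromosome X, of 1732, 891 and 707 bp. The peak at chrX:14744466-14744841 (score 47.98, rank 783) had its summit 383 bp upstream of the hairpin, 358 bp upstream of the start of the shortest primary transcript and 174 bp upstream of the next, and 667 bp inside the longest. That summit also lay 874 bp upstream of the start of C05G5.7, the coding gene that let-7 overlaps in part. Binding at let-7 and at C05G5.7 cannot be told apart there. The other peak, at chrX:14746966-14747341 (score 76.7, rank 283), lay 1833 bp upstream of the longest transcript. Its summit was also in the promoter of the coding gene wshc-2, 149 bp upstream of that start, so binding at let-7 and at wshc-2 cannot be told apart for this peak. The nearer peak ranked 760 in replicate 1 and 440 in replicate 2, with summits 169 bp apart, the widest gap among the peaks at microRNA loci. The farther one ranked 225 in replicate 1 and 686 in replicate 2, with summits 1 bp apart.

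The neighbours mir-241 and mir-48, which act with mir-84 in the timing of larval development, lie on the minus strand of chromosome V. Both mir-241 peaks were far from coding starts, with none within 5 kb. The peak at chrV:14366518-14366893 (score 73.4, rank 322) had its summit 423 bp upstream of mir-241 and the one at chrV:14366724-14367099 (score 51.8, rank 662) had its summit 629 bp upstream. The replicates differed here. The first peak ranked 445 in replicate 1 and had no replicate 2 summit within 200 bp, and the second ranked 2056 in replicate 1 and 181 in replicate 2. The same summits lay 2197 and 2403 bp upstream of mir-48, beyond its window. Within its own window mir-48 had a pooled peak with a score of 11.9 and rank 9043, and mir-84 one with a score of 10.3 and rank 12636, while mir-793, mir-794 and mir-795 had no pooled summit.

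The timing microRNA lin-4 lies in an intron of F59G1.4 on the host's strand, at chrII:5902254-5902347. Its peak, at chrII:5901554-5901929 in the same gene's intron, had a score of 40.2 and rank 1087, and its summit lay 512 bp upstream of the hairpin. It ranked 1711 in replicate 1 and 381 in replicate 2, with summits 48 bp apart. This peak is not in the higher-scoring 50% of the list. The relative mir-237, which shares the lin-4 seed, had no IDR-thresholded or pooled summit, and 1 summit of rank 21739 in replicate 2.

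Of 8 microRNAs listed for neuronal expression or roles, mir-124 and mir-34 had an IDR-thresholded summit. mir-124, whose vertebrate relatives are abundant in neurons and which is expressed in sensory neurons of the worm, lies in an intron of trpa-1. Its peak at chrIV:11871016-11871391 was weak, with a score of 30.6 and rank 1720, a summit 534 bp upstream of the hairpin and ranks of 1663 in replicate 1 and 3191 in replicate 2. The mir-34 peak (chrX:2971517-2971892, score 49.0, rank 738) had its summit 1857 bp upstream and ranked 792 in replicate 1 and 878 in replicate 2. lsy-6, which sets the left-right difference of a pair of taste neurons, had no summit in any list, nor did mir-791 and mir-793. mir-79, mir-273 and mir-790 had no IDR-thresholded summit but had pooled summits, with scores of 16.4, 15.3 and 9.16.

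mir-63 and its relatives rested on 1 weak peak. Of the 5 loci of this family, 4 lie in order on the plus strand in an intron of gcn-1, and the summit of the peak at chrIII:2171982-2172357 lay in all their windows, 282 bp upstream of the first hairpin, mir-229. Its score was 32.4 and its rank 1579, and no coding start lay within 5 kb. It ranked 1198 in replicate 1 and 10501 in replicate 2, so that none of the 5 loci had a summit among the highest-scoring 1803 peaks of replicate 2. mir-63 itself, on chromosome X, had a pooled peak of score 10.9.

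**Figure D3:**
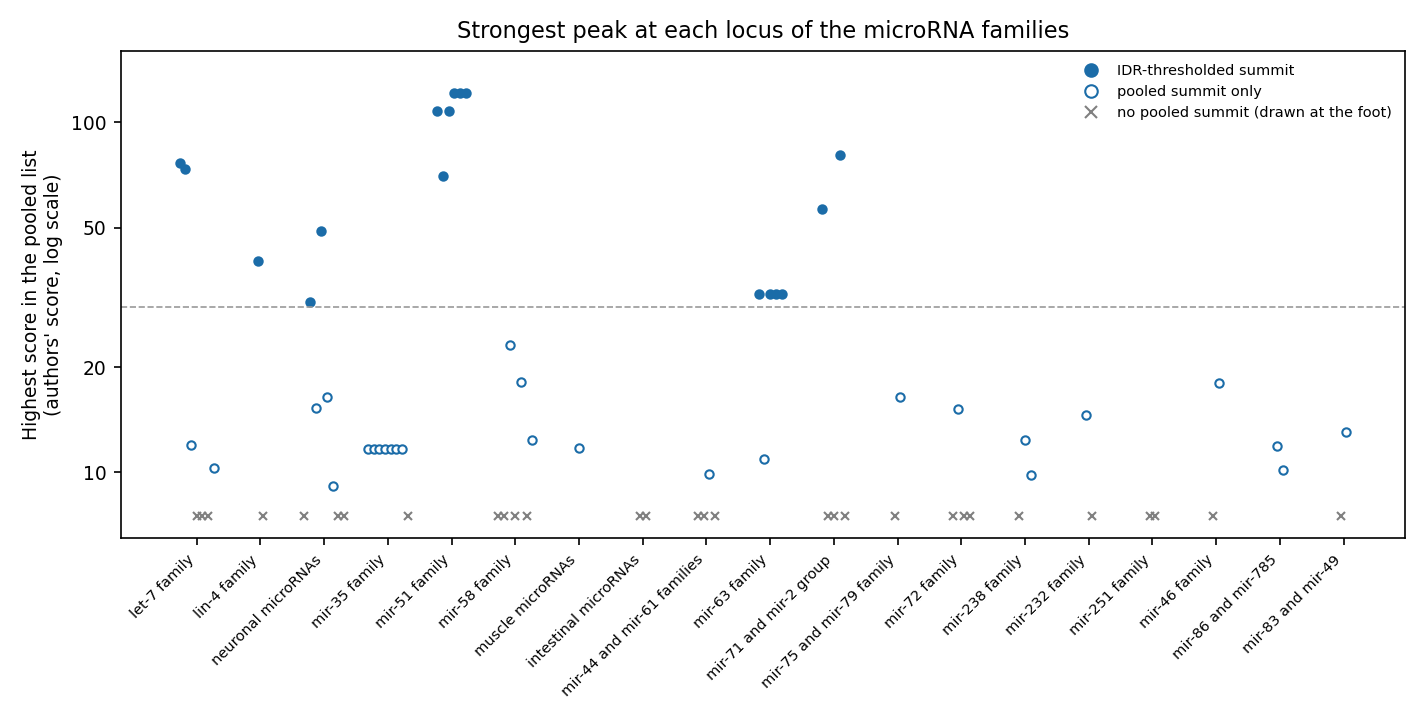
Highest score in the pooled list at each locus of the microRNA families, on a log scale. Filled circles have an IDR-thresholded summit, open circles a pooled summit only and crosses no pooled summit; the dashed line is the lowest score of the IDR-thresholded list, 29.6. The 6 loci of the mir-51 family all stand above the line, and the 8 of the mir-35 family all stand below it.

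Other families had few or no IDR-thresholded summits. In the group of mir-71 and mir-2, which lie in 1 intron of ppfr-1 on chromosome I, 2 of 5 loci had one. mir-71, known for its role in lifespan and stress resistance, had 3 peaks with summits 260, 1316 and 1831 bp upstream and scores of 37.4, 54.1 and 80.6. mir-2 had summits 374 and 640 bp upstream with scores of 56.4 and 30.6, and the weaker of these ranked 1832 in replicate 1 and 7334 in replicate 2. None of the 5 summits had a coding start within 5 kb.

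The mir-35 family, which acts in the embryo, had no IDR-thresholded summit at any of 8 loci. For 7 of them a single pooled summit of score 11.7 and rank 9495 lay in all their windows, and mir-42 had none. The 7 annotated loci of the mir-58 family, abundant in the worm, also had none, with mir-58.1 at a pooled score of 23.1 and rank 2691. The muscle microRNA mir-1 had a pooled score of 11.7 and rank 9412. mir-60 and mir-243, listed for the intestine, had no pooled summit. The remaining lists, which hold 2 to 4 loci each, had no IDR-thresholded summit either.

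Over all lists, 17 of 72 listed loci (23.6%, 15.3 to 34.6%) and 13 of 184 other loci (7.07%, 4.18 to 11.7%) had an IDR-thresholded summit. Of those 17, 10 belong to the mir-51 and mir-63 families, where members share peaks. The families were listed with earlier results of these data known, so the counts describe these loci and nothing beyond them. By seed, all 6 genes of the mir-51 seed, 4 of 5 with the seed of mir-229, 2 of 5 with the let-7 seed and 1 of 3 with the mir-90 seed had a summit.

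The strongest peak at any microRNA locus was at mir-354, whose hairpin lies in the 3′ UTR of rps-20. This peak, at chrI:14469230-14469450, had a score of 223 and rank 13, and ranked 19 in replicate 1 and 9 in replicate 2. Its summit lay 845 bp upstream of the hairpin, in the shared promoter of rps-20 and ekl-4. mir-90, in an intron of K01F9.2 on the host's strand, had a peak at chrIII:8874215-8874590 with a score of 119 and rank 80, and its summit lay 319 bp upstream and far from the host's start, at 2725 bp downstream of it. It ranked 197 in replicate 1 and 35 in replicate 2. mir-5549 and mir-8209 had summits 8 and 28 bp upstream of their hairpins, with scores of 75.1 and 57.9. That of mir-5549 was also in the promoters of rfc-4 and eef-1A.1, which encodes a translation elongation factor. That of mir-8209 lay 129 bp inside its annotated primary transcript of 262 bp.

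The remaining loci had summits farther off or weaker. The mir-2215 summit lay 1653 bp upstream (score 83.2), that of mir-2216 1829 bp (62.2, in the promoters of gmps-1 and cap-2), that of mir-353 1010 bp (52.4, in the promoters of rpl-24 and rps-10) and that of mir-2221 1246 bp (49.0). The merged pair mir-8186.2 and mir-8186.1 had a summit (40.8) in the promoter of gmeb-1. It lay 359 bp upstream of mir-8186.2. For mir-8186.1, on the other strand, it lay downstream and outside that entry's own window. mir-2212 and mir-1819 shared a summit 1871 bp upstream of mir-2212 (36.3), mir-2211 had one 1454 bp upstream (35.8) and mir-1829.2 one 1287 bp upstream (31.0). No role is given for these microRNAs here.

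The replicate summits of most of these peaks lay near each other. A summit of each replicate lay within 200 bp for 29 of the 30 peaks, with a median gap of 25 bp between the replicate summits, and the exception was the stronger peak at mir-241. Both replicate ranks were 1803 or better for 23 of the 30 peaks. Replicate 1 ranked the peak higher for 14 of them and replicate 2 for 16, where a peak with no summit counts as the lower rank. Among the 30 loci, 29 had a summit of each replicate somewhere in the window, and mir-1819 had none of replicate 2.

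**Figure D4:**
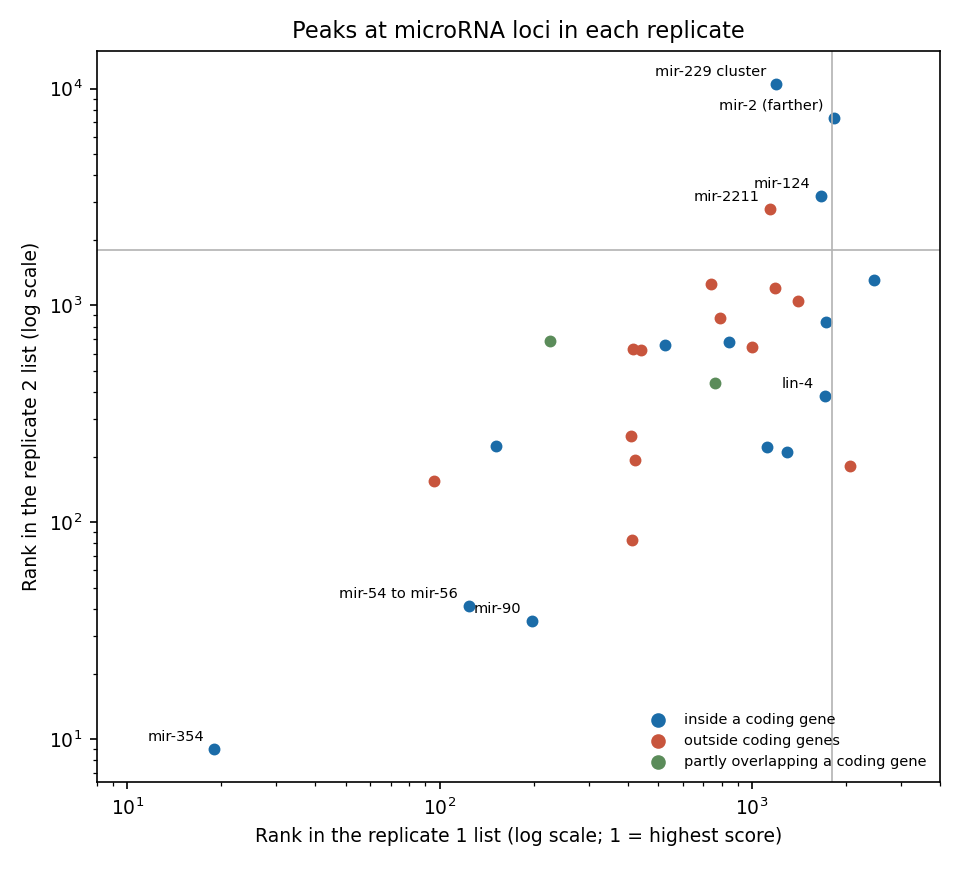
Rank of 29 peaks at microRNA loci in the replicate 1 list (x axis) and in the replicate 2 list (y axis), both log scales with 1 the highest score, coloured by the position of the locus; the stronger mir-241 peak, which had no replicate 2 summit within 200 bp, is not drawn. Grey lines mark rank 1803, and the peaks at the mir-229 cluster, mir-2 (the farther summit), mir-124 and mir-2211 lie above the line for replicate 2.

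Beyond the 30 loci, 73 (28.5%, 23.3 to 34.3%) had a pooled summit without an IDR-thresholded one, against 25.7% of all windows. Replicate summits within 200 bp of each other without an IDR-thresholded one lay at 30 loci (11.7%, 8.33 to 16.2%), against 11.9% of windows. Both window shares lie within the intervals of the microRNA loci. The strongest such pooled peaks, named after their values were seen, were at mir-2214 (score 27.5, rank 2041), mir-8190 (26.7, rank 2140) and mir-62 (24.5, rank 2429). mir-236, which carries the seed of the mammalian miR-200 family and was looked up after the other values were seen, had no IDR-thresholded or pooled summit and only a replicate 1 summit of rank 21775, 1594 bp upstream.

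The 30 peaks were set beside the other 1754 nuclear IDR-thresholded peaks. Their scores ran from 30.6 to 223 with a median of 52.1, against 29.6 to 354 with a median of 44.2 in the others, and their median rank was 655.5, against 915.5. Both sets had a median width of 376 bp. The position relative to coding genes was read for both sets. No coding start lay within 5 kb of 11 of the 30 peaks (36.7%, 21.9 to 54.5%), against 209 of the others (11.9%, 10.5 to 13.5%). Most of these 11 are neighbours, in ppfr-1 (at mir-71 and mir-2), at mir-241 and at mir-52. The interval counts them as separate. A coding promoter held 7 of the 30 summits (23.3%, 11.8 to 40.9%), against 625 of the others (35.6%, 33.4 to 37.9%). Of the 30 summits, 10 (33.3%) lay in introns, against 448 of the other 1754 (25.5%). Between genes lay 20 of the 30, against 1202 of the other 1754. None of the 30 lay within 200 bp of a tRNA, snoRNA or snRNA gene. Among the 1754 others, 55 lay that near a tRNA gene and 57 that near a snoRNA or snRNA gene. Both are small shares, so finding none among 30 peaks does not set these peaks apart. The part of the choice of windows in these positions was not tested.

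Sequence within 100 bp of the summit was searched on both strands. GAGAGA occurred at 20 of the 30 summits (66.7%, 48.8 to 80.8%), against 49.5% of the other summits (47.2 to 51.9%) and 10.1% of the first 201 bp of all nuclear windows. CACACA occurred at 11 (36.7%, 21.9 to 54.5%), against 30.4% of the others and 8.57% of the windows. The general E-box CANNTG occurred at 21 (70.0%, 52.1 to 83.3%), against 57.0% and 53.8%. The E-box CAGGTG, a subset of CANNTG that ZEB proteins are known to bind, occurred at 1 summit, that of mir-52 shown above (3.33%, 0.591 to 16.7%), against 1.88% of the others and 4.84% of the windows. GC content averaged 49.5 ± 7.41% at the 30 summits, 45.7 ± 6.53% at the others and 35.5 ± 7.23% in the windows (SD over sequences). All intervals at microRNA summits except those of CAGGTG and CANNTG lay above the share in the windows, and the intervals for GAGAGA and CACACA include the share at the other summits.

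Genes listed for small RNA processing, for acting with microRNAs or as known targets were read in the same list. Each summit was assigned to the closest coding start if that lay at most 5 kb away, which made a call for 6.94% of all protein-coding genes. Of 43 listed and annotated genes, 14 had one (32.6%, 20.5 to 47.5%). None of the 4 genes listed under processing had a summit. These were drsh-1 and pash-1 of the nuclear step, dcr-1, and rde-4, for which no part in making microRNAs is claimed here. Of 13 Argonaute and cofactor genes 5 had one, namely the microRNA Argonautes alg-1 (score 64.3, 3389 bp upstream) and alg-2 (37.5, in an intron), the GW182-like ain-1 (89.5), the RISC component gene vig-1 (84.4 and 32.0) and the RNA helicase gene cgh-1 (53.5).

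Among 8 turnover and control genes, lin-28, which blocks let-7 maturation, had summits of 56.8 and 34.7. Of 20 known targets 9 had a summit, lin-28 included. The lin-4 and let-7 targets with one were lin-14 (84.1, 49.8 and 39.3), lin-41 (92.2), hbl-1 (49.6) and daf-12 (81.5). The mir-1 targets mef-2 (115.4 and 57.0) and unc-63 (61.8), the mir-35 family target sup-26 (117 and 44.6) and the mir-71 target tir-1 (35.9) also had one. The genes were listed with earlier results of these data known, and the count describes these genes only.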

How the data were processed

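Per the labels and the deposited file list, ChIP-seq of 2 replicates gave peak lists per replicate, each made with a control alignment, a pooled list and an IDR-thresholded list. Each deposited list holds the authors' score and −log10 q-value of every peak and a summit offset. Only the score and the summit were used here, in ce11. Not given in the sources used here are the caller, its filters and the threshold. Loci came from Ensembl release 115 (WBcel235), and mature sequences from RefSeq, where all 261 entries matched by gene ID. Windows and overlaps (1 bp) were computed in Python 3.11.15 with numpy 2.4.6 loaded, and 95% Wilson intervals with scipy 1.17.1. Figures were drawn with matplotlib 3.10.9. Background windows tile the nuclear chromosomes. The window counts were tested on simulated summits. Loci with an IDR-thresholded summit, family lists and pathway lists were named by rule; the members, lists and alternatives were chosen with earlier results of these data known. Mature sequences are given for a choice of loci only, and not for the mir-63 family. Control data were not analysed here, so a control signal at these loci was not examined. Of the listed symbols, mir-1834, ntl-1 and pan-3 were not found in the annotation.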

Additional observations from a re-analysis of the deposited data

How the results depend on the processing

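Of 43 alternative values, 33 stayed within 1.5 times the reported count or within the interval of the reported share. The reach of the window moved the counts most, and no share of genomic windows was computed for the other reaches. The 30 loci became 14 with 500 bp upstream and 52 with 5 kb, and 19 with the higher-scoring 50% of the peaks. The 16 loci inside coding genes became 6, 32 and 9 in the same settings. The 13 loci outside coding genes became 7 both with 500 bp and with 1 kb upstream. The 93 loci with summits of both replicates became 59 with the higher-scoring 50% of each list, and 59 where the summits had to lie within 200 bp. With as many of the highest-scoring peaks of 1 replicate alone, the counts were 28 to 30 over all loci, 13 to 16 inside and 13 to 14 outside coding genes, and 14 to 14 for pathway genes, and the share within 500 bp was 44.8 to 46.9%. These were not all the same loci: 29 of the 30 were found with replicate 1 alone, 23 with replicate 2 alone and 22 with both. Counting overlapping windows as 1 region was chosen after seeing the data. No paired analysis was possible because there is 1 group. Counting of few loci limits every share, and read depth is unknown.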
